A study of Mus musculus with 11 samples.

Results

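The transcripts of 49 DNA repair genes were followed over the 4 cell lines of a murine model of melanoma progression. The genes were chosen by name, as listed members of homologous recombination, the Fanconi anemia pathway, damage signalling, mismatch repair, nucleotide excision repair, base excision repair, end joining, the shielding of abasic sites, direct reversal and lesion bypass. Of these, 48 had a row among the 14272 genes of the processed files, and Mgmt, the methyltransferase that removes alkyl groups from guanine, was not analysed here.

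Total RNA depleted of ribosomal RNA was sequenced from 11 libraries, namely melan-a replicates 2 and 3 and 3 replicates of 4C, 4C11- and 4C11+ each. Melan-a is a spontaneously immortalized line of nonmalignant murine melanocytes, kept in medium with the phorbol ester PMA at 200 nM. The pre-malignant 4C line, the non-metastatic melanoma line 4C11- and the metastatic melanoma line 4C11+ were derived from it by repeated blockade of substrate adhesion and were grown without PMA, so the withdrawal of PMA and the change of line cannot be told apart. The study treats melan-a and 4C11+ as epithelial and 4C and 4C11- as mesenchymal-like. The libraries of a line are labelled as replicates of that line, and each stage of the model is represented by a single line.

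Cells repair lesions by pathways that differ in the damage they recognize. Nucleotide excision repair cuts out a stretch of the strand around bulky lesions, among them the pyrimidine dimers made by ultraviolet light, which is why this pathway is best known in skin and pigment cells. Base excision repair removes single damaged bases by glycosylases, cuts the abasic site and reseals the strand. Mismatch repair corrects replication errors. Double-strand breaks are sealed directly by end joining or copied from the sister chromatid by homologous recombination, and the Fanconi anemia pathway unhooks crosslinks between the strands.

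Values were used as deposited, on the scale of log2 CPM, read counts scaled to the library, where a difference of 1 is a doubling. The libraries share their highest value and nearly their median, as a quantile step would leave them. Sums in CPM and fold differences are therefore those of the normalized values. A gene was called when its adjusted p from limma was under 0.05 over all genes. The labels were checked against marker genes. All 7 melanocyte markers were lower in 4C than in melan-a and higher in 4C11+ than in 4C11-, and their summed level was 3.01 to 11.5 CPM in the 6 libraries of 4C and 4C11-, against 1744 to 12884 in the other 5. Tyr, the tyrosinase of pigment synthesis, was at log2 levels of -0.25 and 1.29 in melan-a and between 8.39 and 8.70 in 4C11+, and Pmel, a melanosome protein, was at 2.41 and 2.95 in melan-a and between 11.72 and 12.20 in 4C11+, so these defining markers were low in melan-a. The 4 measured fibroblast markers summed to 1968 to 2630 CPM in 4C and 4C11-, to 25.8 to 45.0 in 4C11+ and to 206 and 19.8 in replicates 2 and 3 of melan-a. Replicate 2 of melan-a also stood apart in the macrophage marker Cd68, with a log2 level of 6.35 against 2.67 in replicate 3, and in Tyrp1, a melanosomal enzyme, with 8.51 against 12.63. The part of these markers in the results on melan-a was not tested.

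In the main fit, with equal weights for all libraries, a smaller share of the repair genes than of all genes was called in each comparison. With weights estimated for each library, the share between the phenotypes was not smaller, as given in the closing section. A gene that was not called may still differ. In 4C against melan-a the median size of the difference was 0.41 over the 48 members, against 0.54 over all genes. It was 0.80 over the 9 recombination members, of which 0 were called. In all, 14 of the 48 genes (29.2%) were called in at least 1 of 5 comparisons, against 43.1% of all genes, and the F-test for any difference among the 4 lines called 8 (16.7%) against 36.1% of all genes. Between 4C11- and 4C11+, 9 genes (18.8%) were called against 31.1% of all genes, 3 of them higher in 4C11+ (15.6% of all genes) and 6 lower (15.4%). Against melan-a, 5 genes (10.4%) were called in 4C11+ against 15.9% of all genes, 2 of them higher (8.39% of all genes) and 3 lower (7.52%). In 4C, 2 genes (4.17%) were called, against 15.2% of all genes, and both were lower than in melan-a (7.55% of all genes). Between 4C11- and 4C, limma called 0 members against 1.67% of all genes, and 2 members were at an unadjusted p under 0.05, against 13.5% of all genes. The phenotypes were compared as the mean of 4C and 4C11- against that of melan-a and 4C11+. Here 10 genes (20.8%) were called, against 29.7% of all genes, 6 of them higher in the mesenchymal-like lines (14.3% of all genes) and 4 lower (15.3%). Without melan-a replicate 2, 0 members were called from melan-a to 4C (13.1% of all genes), 3 between the epithelial lines (8.3% of all genes), namely Ddb2, Ercc5 and Parp2, and 5 between the phenotypes (28.7% of all genes), where Ddb2, Pms2, Parp2, Apex1 and Msh6 were no longer called. These comparisons share libraries and are not independent of each other. The median difference of the 48 genes between 4C11+ and 4C11- was -0.18, against 0.12 over all genes, and that between the phenotypes was 0.29 against -0.09.

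**Figure D1:**
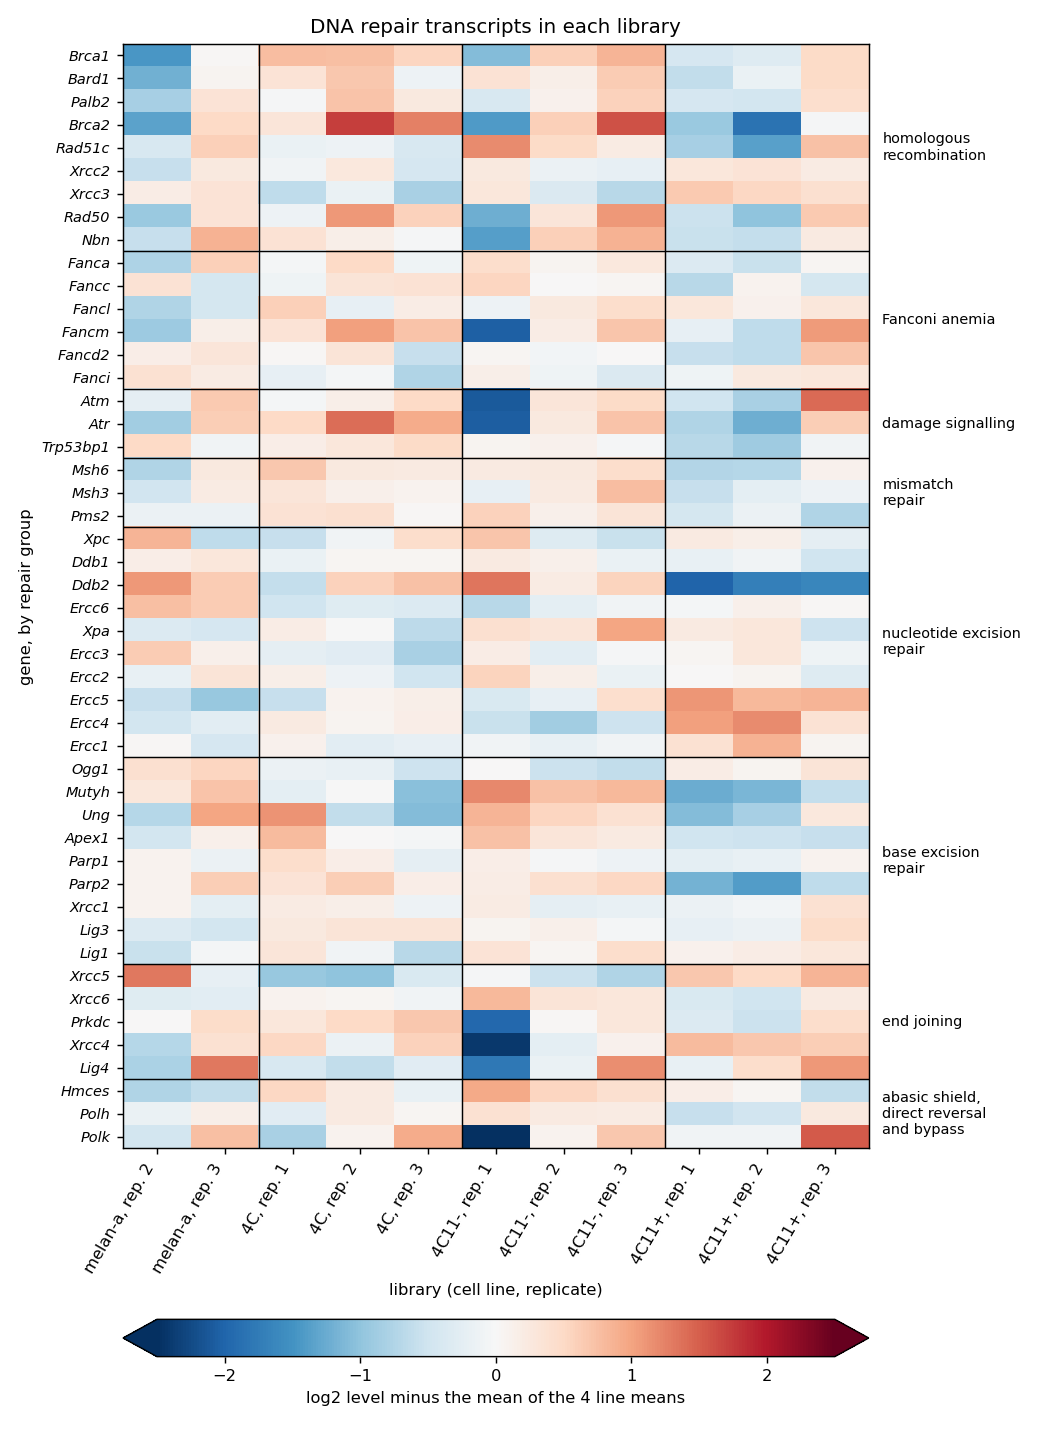
Each cell is the log2 level of a repair gene in a library minus the mean of the 4 line means, with genes in rows by repair group and libraries in columns by line. Ddb2, Mutyh and Parp2 are low in the 3 libraries of 4C11+ and Ercc4 and Ercc5 are high there, while 4C11- replicate 1 is low in Atm, Atr, Prkdc, Xrcc4 and Polk.

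In nucleotide excision repair, the sensor Ddb2 and the endonucleases Ercc4 and Ercc5 changed in opposite directions in the metastatic line. Ddb2 (chr2:91211572-91236982, GRCm38), which binds ultraviolet lesions in chromatin and hands them to Xpc, had log2 levels of 4.70 and 4.25 in melan-a, 3.02, 4.19 and 4.35 in 4C, 4.94, 3.82 and 4.16 in 4C11-, and 1.60, 1.90 and 1.97 in 4C11+. All 3 libraries of 4C11+ lay below each of the other 8. Ddb2 was 5.59-fold lower in 4C11+ than in 4C11- (log2 difference -2.48 ± 0.41 SE, adjusted p = 8.5e-04) and 6.26-fold lower than in melan-a (-2.65 ± 0.46, adjusted p = 0.00307). Counted on the steps that single reads leave among the low values, Ddb2 had approximately 11, 14 and 19 reads in the 4C11+ libraries and 54 to 126 in the others. Ddb2 was also called between the mesenchymal-like and epithelial lines (0.93 ± 0.31, adjusted p = 0.0408), although its mean in melan-a, 4.47, was above those in 4C, 3.85, and 4C11-, 4.31. Of the exon bases of Ddb2, 23.8% are shared with Acp2 on the opposite strand, and whether reads were counted by strand is not given in the sources used here. Acp2 itself differed by -0.36 ± 0.24 between 4C11+ and 4C11- (adjusted p = 0.274) and by -0.96 ± 0.27 between 4C11+ and melan-a (adjusted p = 0.0308).

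The partners of Ddb2 in damage recognition were not called. Ddb1, the adaptor that ties Ddb2 to its ubiquitin ligase, ranged from 9.64 to 10.42 over the 11 libraries. Xpc, the sensor of the whole genome, ranged from 5.58 to 7.06 with overlapping lines, and its mean was 6.26 in 4C11+ and 6.14 in 4C11-.

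Ercc4 (chr16:13109684-13150617), the endonuclease that cuts upstream of the lesion, had log2 levels of 4.62 and 4.81 in melan-a, 5.30, 5.14 and 5.25 in 4C, 4.53, 4.21 and 4.57 in 4C11-, and 6.10, 6.27 and 5.45 in 4C11+. Each 4C11+ library was above every other library. Ercc4 rose 2.84-fold from 4C11- to 4C11+ (1.50 ± 0.26, adjusted p = 0.00106) and was 2.33-fold higher in 4C11+ than in melan-a (1.22 ± 0.29, adjusted p = 0.0157). Without melan-a replicate 2, the latter difference was 1.13 with an adjusted p of 0.0887. Ercc1, the obligate partner of Ercc4, moved less, with 4.91, 5.40 and 4.59 in 4C11+ and 4.45, 4.34 and 4.45 in 4C11-. Its libraries did not overlap between these lines, but the difference of 0.55 ± 0.27 was not called (adjusted p = 0.149).

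Ercc5 (chr1:44147744-44181260), the endonuclease that cuts downstream of the lesion, had log2 levels of 4.55 and 4.19 in melan-a, 4.56, 5.21 and 5.28 in 4C, 4.75, 4.93 and 5.55 in 4C11-, and 6.23, 5.94 and 5.97 in 4C11+. It was lowest in melan-a, intermediate and overlapping in 4C and 4C11-, and highest in 4C11+, whose libraries were above all others. Ercc5 was 3.20-fold higher in 4C11+ than in melan-a (1.68 ± 0.32, adjusted p = 0.00558) and 1.96-fold higher than in 4C11- (0.97 ± 0.29, adjusted p = 0.0244).

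Ercc6 (chr14:32513521-32580990), which couples repair to stalled RNA polymerase, was lower in the mesenchymal-like lines, though only narrowly below 4C11+. Its log2 levels were 6.41 and 6.29 in melan-a, 5.16, 5.35 and 5.32 in 4C, 4.96, 5.41 and 5.58 in 4C11-, and 5.61, 5.79 and 5.68 in 4C11+. The 6 mesenchymal-like libraries lay below all 5 epithelial ones, a separation seen in 3 of the 48 members and in 13.9% of all genes. The nearest were 5.58 in 4C11- and 5.61 in 4C11+. Between these lines Ercc6 was not called (0.38 ± 0.22, adjusted p = 0.223), and its mean was 6.35 in melan-a and 5.69 in 4C11+. Ercc6 was 1.65-fold lower in the mesenchymal-like lines (-0.73 ± 0.17, adjusted p = 0.00613) and fell 2.11-fold from melan-a to 4C (-1.07 ± 0.25, adjusted p = 0.0119). The step from melan-a to 4C was -1.02 without melan-a replicate 2, with an adjusted p of 0.0586. The other members of the pathway, the verification factor Xpa and the TFIIH helicases Ercc2 and Ercc3, were called in 0 comparisons. Ercc3 came nearest, at -0.82 ± 0.28 in 4C against melan-a (adjusted p = 0.0734), and Ercc2 ranged from 4.03 to 5.08 with overlapping lines.

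In base excision repair, 3 of 9 members fell from 4C11- to 4C11+ and 0 rose, against 15.4% of all genes that fell and 15.6% that rose. Mutyh (chr4:116807723-116819440), the glycosylase that removes adenine misplaced opposite oxidized guanine, had log2 levels of 3.02 and 3.45 in melan-a, 2.49, 2.72 and 1.68 in 4C, 3.93, 3.46 and 3.54 in 4C11-, and 1.48, 1.58 and 2.14 in 4C11+. The 4C11- libraries were the highest, the lowest of them level with melan-a replicate 3, while 4C and 4C11+ overlapped. Mutyh was 3.76-fold lower in 4C11+ than in 4C11- (-1.91 ± 0.38, adjusted p = 0.00256), with approximately 10, 11 and 22 reads against 65, 81 and 74. Against melan-a it was 2.83-fold lower (-1.50 ± 0.42, adjusted p = 0.0321), and -1.72 without melan-a replicate 2, with an adjusted p of 0.0749. The rise of 1.35 ± 0.38 on the log2 scale from 4C to 4C11- did not pass the test over all genes (adjusted p = 0.115). Mutyh is among the module hubs that the study picked from these libraries, as is Hmces, so their patterns are not independent of that choice.

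Parp2 (chr14:50807841-50821301), a sensor of strand breaks that builds poly(ADP-ribose), had log2 levels of 5.39 and 5.93 in melan-a, 5.66, 5.92 and 5.47 in 4C, 5.50, 5.71 and 5.83 in 4C11-, and 4.12, 3.91 and 4.67 in 4C11+. The means of the first 3 lines were between 5.66 and 5.68, and every 4C11+ library was below all others. Parp2 was 2.73-fold lower in 4C11+ than in 4C11- (-1.45 ± 0.27, adjusted p = 0.0018) and 2.70-fold lower than in melan-a (-1.43 ± 0.30, adjusted p = 0.00892). The called difference between mesenchymal-like and epithelial lines, 0.73 ± 0.20 (adjusted p = 0.0172), included a melan-a mean that was level with those of 4C and 4C11-. Parp1, its better known relative, stayed between 8.28 and 8.96 in all libraries and was called in 0 comparisons.

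Apex1 (chr14:50924968-50927139), which cuts abasic sites, had log2 levels of 4.68 and 5.26 in melan-a, 5.92, 5.13 and 5.09 in 4C, 5.86, 5.43 and 5.35 in 4C11-, and 4.64, 4.62 and 4.55 in 4C11+. The 4C11+ libraries were tightly grouped below all others, though only narrowly below melan-a replicate 2. The difference between 4C11+ and melan-a was not called (-0.36 ± 0.32, adjusted p = 0.478). Apex1 was 1.92-fold lower in 4C11+ than in 4C11- (-0.94 ± 0.29, adjusted p = 0.0274) and 1.60-fold higher in the mesenchymal-like than in the epithelial lines (0.68 ± 0.22, adjusted p = 0.0334). The latter difference was 0.54 without melan-a replicate 2 (adjusted p = 0.119). Of its exon bases, 61.7% are shared with Pip4p1 on the opposite strand, and Pip4p1 differed by -0.21 ± 0.30 between 4C11+ and 4C11- (adjusted p = 0.625).

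Ogg1 (chr6:113326972-113335068), the glycosylase for oxidized guanine, went the other way. Its log2 levels were 4.97 and 5.11 in melan-a, 4.43, 4.39 and 4.06 in 4C, 4.58, 4.04 and 3.95 in 4C11-, and 4.75, 4.64 and 4.89 in 4C11+. All 6 mesenchymal-like libraries were below the 5 epithelial ones, and Ogg1 was 1.58-fold lower in them (-0.66 ± 0.19, adjusted p = 0.0231). Of its exon bases, 10.6% are shared with Camk1 on the opposite strand. Of the remaining members, Ung, the uracil glycosylase, was too variable within lines to be called, with 5.43, 3.69 and 3.23 in 4C. The scaffold Xrcc1 and the ligases Lig1 and Lig3 were called in 0 comparisons, and Lig3 was higher in each 4C library than in both melan-a libraries (0.70 ± 0.24, adjusted p = 0.0739).

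**Figure D2:**
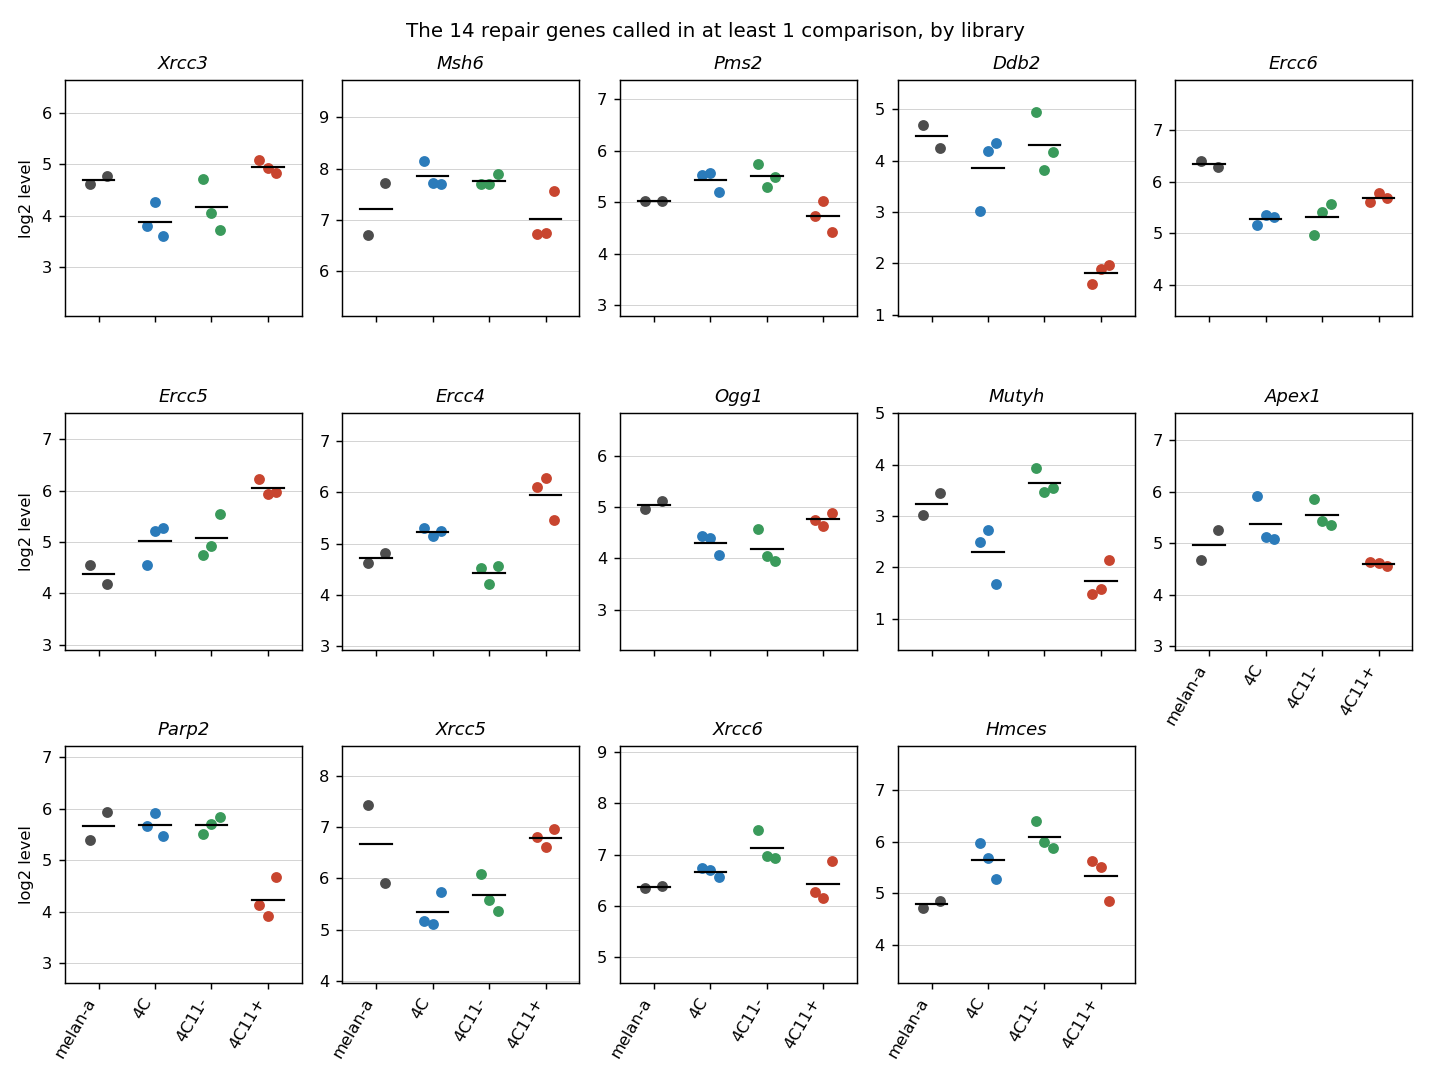
Points are the log2 levels of the 14 repair genes called in at least 1 comparison in each of the 11 libraries, black bars are line means, and every panel spans the same number of log2 units. The 3 libraries of 4C11+ lie below or above all others in Ddb2, Ercc4, Ercc5, Parp2 and, narrowly, Apex1, while Ercc6 and Ogg1 are lower in all libraries of 4C and 4C11-.

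The stretches before the starts of Parp2, Ercc4 and Mutyh are shown because these genes had the smallest adjusted p of the F-test, beside Ddb2, among members called in more than 1 comparison. The sequences are the RefSeq promoters on GRCm38.p6, 250 bases up to the start in RefSeq, 5′ to 3′ on the plus strand, and 40 of the 48 members had such an entry. These starts lie inside the GENCODE gene positions given above, so each window ends within the gene as annotated there. Capitals mark matches, on either strand, to a GC box (GGGCGG) or a CCAAT box (CCAAT).
Parp2 (chr14:50807666-50807915): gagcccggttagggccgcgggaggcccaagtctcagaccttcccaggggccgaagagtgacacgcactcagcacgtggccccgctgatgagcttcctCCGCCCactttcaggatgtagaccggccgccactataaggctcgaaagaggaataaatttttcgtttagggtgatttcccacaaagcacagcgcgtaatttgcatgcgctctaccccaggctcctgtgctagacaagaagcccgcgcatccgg
Ercc4 (chr16:13109486-13109735): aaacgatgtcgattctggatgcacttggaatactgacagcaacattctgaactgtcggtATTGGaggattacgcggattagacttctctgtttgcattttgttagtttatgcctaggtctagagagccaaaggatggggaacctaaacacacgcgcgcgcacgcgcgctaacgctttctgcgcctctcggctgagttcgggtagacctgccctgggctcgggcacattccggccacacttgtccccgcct
Mutyh (chr4:116807484-116807733): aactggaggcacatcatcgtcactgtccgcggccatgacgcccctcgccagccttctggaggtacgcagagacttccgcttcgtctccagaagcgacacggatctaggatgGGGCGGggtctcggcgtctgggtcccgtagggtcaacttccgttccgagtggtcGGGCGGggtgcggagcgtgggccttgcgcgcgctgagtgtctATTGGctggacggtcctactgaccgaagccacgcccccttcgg
Among all 32851 promoter entries, 32.7% hold a GC box and 33.8% a CCAAT box in the same window. The letters of an E2F site (TTTCCCGC or TTTGGCGC, in 1.3% of entries), of the CHR element of cell cycle genes (TTTGAA, in 16%) and of the M-box core (CATGTG, in 12.3%) are not in these 3 windows. On the opposite strand, the Mutyh window runs into the gene of Toe1 and the Parp2 window into those of Ccnb1ip1 and Rpph1, the RNA of ribonuclease P. Rpph1, named here after its values were seen, had the highest value on the log2 scale, 13.69, in each 4C11- library and 11.51, 12.42 and 12.63 in 4C11+ (-1.51 ± 0.29, adjusted p = 0.00225). Unlike Parp2, it was not called between 4C11+ and melan-a (-0.34 ± 0.33, adjusted p = 0.522).

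In mismatch repair, Pms2 and Msh6 were higher in the mesenchymal-like lines. Pms2 (chr5:143909964-143933968), the endonuclease subunit, had log2 levels of 5.03 and 5.02 in melan-a, 5.53, 5.57 and 5.19 in 4C, 5.74, 5.30 and 5.49 in 4C11-, and 4.73, 5.02 and 4.42 in 4C11+. The 6 mesenchymal-like libraries lay above the 5 epithelial ones. Pms2 was 1.51-fold higher in them (0.60 ± 0.18, adjusted p = 0.0282) and fell 1.73-fold from 4C11- to 4C11+ (-0.79 ± 0.24, adjusted p = 0.029). Msh6 (chr17:87975062-87990892), which recognizes base mismatches, had log2 levels of 6.71 and 7.71 in melan-a, 8.14, 7.71 and 7.69 in 4C, 7.69, 7.70 and 7.90 in 4C11-, and 6.72, 6.75 and 7.56 in 4C11+. Melan-a replicate 2 and replicates 1 and 2 of 4C11+ were low, and the other epithelial libraries overlapped or approached the mesenchymal-like ones. The difference of 0.70 ± 0.22 (adjusted p = 0.0356) became 0.45 without melan-a replicate 2 (adjusted p = 0.154). Msh3, which recognizes loops, differed by 0.44 ± 0.22 in the same direction and was not called (adjusted p = 0.157).

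In end joining, both Ku subunits were called between 4C11+ and 4C11-, in opposite directions. Xrcc5 (chr1:72307421-72394952), the large Ku subunit, had log2 levels of 7.43 and 5.92 in melan-a, 5.17, 5.12 and 5.74 in 4C, 6.09, 5.58 and 5.36 in 4C11-, and 6.80, 6.61 and 6.96 in 4C11+. The mesenchymal-like libraries were the lower ones, except that 4C11- replicate 1 was above melan-a replicate 3. Xrcc5 was 2.33-fold lower in the mesenchymal-like lines (-1.22 ± 0.27, adjusted p = 0.00515) and 2.16-fold higher in 4C11+ than in 4C11- (1.11 ± 0.36, adjusted p = 0.0362). The fall of 2.51-fold from melan-a to 4C (-1.33 ± 0.40, adjusted p = 0.0466) rested on melan-a replicate 2, and was -0.57 without it (adjusted p = 0.39).

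Xrcc6 (chr15:81987835-82040085), the small Ku subunit, had log2 levels of 6.34 and 6.38 in melan-a, 6.73, 6.69 and 6.56 in 4C, 7.47, 6.98 and 6.93 in 4C11-, and 6.27, 6.15 and 6.88 in 4C11+. The 4C11- libraries were above all others, though only narrowly above 4C11+ replicate 3. Xrcc6 was 1.62-fold lower in 4C11+ than in 4C11- (-0.69 ± 0.24, adjusted p = 0.046), a call at the edge of the threshold that was lost in 11 of 20 alternatives. The kinase Prkdc, the ligase Lig4 and its partner Xrcc4 were called in 0 comparisons. Their 4C11- replicate 1 values of 3.41, 1.26 and 0.48 were far below those of the other replicates of that line, which were 5.41 and 5.67, 2.89 and 4.21, and 2.64 and 3.0.

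Homologous recombination, the Fanconi anemia pathway and damage signalling held 1 called gene in 18 members, against 43.1% of all genes called in at least 1 of the 5 comparisons. Xrcc3 (chr12:111803192-111813873), which acts in homologous recombination, had log2 levels of 4.61 and 4.76 in melan-a, 3.79, 4.26 and 3.60 in 4C, 4.71, 4.06 and 3.73 in 4C11-, and 5.08, 4.93 and 4.83 in 4C11+. Apart from 4C11- replicate 1, which lay between the melan-a libraries, all mesenchymal-like libraries were below the epithelial ones. Xrcc3 was 1.73-fold lower in the mesenchymal-like lines (-0.79 ± 0.23, adjusted p = 0.0209).

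The other 17 members of these groups did not pass the test in any comparison, and between the phenotypes 13 of them had positive differences and 4, Xrcc2, Fancd2, Fanci and Atm, negative ones. Of the 9 recombination genes, 7 had a positive difference between mesenchymal-like and epithelial lines, with a group median of 0.40 against -0.09 over all genes. Brca2, a tumor suppressor that acts in homologous recombination, had log2 levels of 4.08 and 5.91 in melan-a, 5.72, 7.14 and 6.67 in 4C, 4.0, 6.0 and 7.0 in 4C11-, and 4.49, 3.57 and 5.38 in 4C11+. The spread within 4C11- spanned most of the range of the gene, and the difference of 1.35 ± 0.56 was not called (adjusted p = 0.0936). Brca1, which promotes resection of broken ends, stood at 0.80 ± 0.37 (adjusted p = 0.134), and its ligase partner Bard1 at 0.68 ± 0.29 (adjusted p = 0.106). Palb2, Rad51c, Xrcc2, Rad50 and Nbn had differences between -0.12 and 0.58.

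The 6 Fanconi anemia genes had differences between mesenchymal-like and epithelial lines from -0.44 ± 0.19 in Fanci (adjusted p = 0.111) to 0.39 ± 0.24 in Fancc (adjusted p = 0.261). Fancd2, which is ubiquitinated together with Fanci at crosslinks, differed by -0.08 ± 0.26 there, and by -0.16 ± 0.35 between 4C11+ and 4C11-. The core complex subunits Fanca, Fancl and Fancm had differences of 0.37, 0.38 and 0.30. Of the damage signalling genes, Trp53bp1, which limits end resection, was not called. Its log2 levels were 5.83, 5.64 and 6.45 in 4C11+ and 6.60, 6.63 and 6.50 in 4C11- (-0.60 ± 0.25, adjusted p = 0.0919). The kinases Atm and Atr ranged from 3.65 to 7.17 and from 3.06 to 6.53 over the libraries, with both minima in 4C11- replicate 1.

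Hmces (chr6:87913935-87936629), which crosslinks itself to abasic sites in single-stranded DNA and so shields them, had log2 levels of 4.71 and 4.85 in melan-a, 5.98, 5.68 and 5.27 in 4C, 6.41, 5.99 and 5.87 in 4C11-, and 5.62, 5.50 and 4.85 in 4C11+. Melan-a was lowest and 4C11- highest, without overlap with each other, and 4C and 4C11+ overlapped. Hmces was 1.76-fold higher in the mesenchymal-like than in the epithelial lines (0.81 ± 0.21, adjusted p = 0.0126). The bypass polymerases were called in 0 comparisons, and Polh, which copies past ultraviolet lesions, ranged from 5.36 to 6.32, while Polk, which copies past bulky lesions, ranged from 1.01 in 4C11- replicate 1 to 5.36 in 4C11+ replicate 3.

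**Figure D3:**
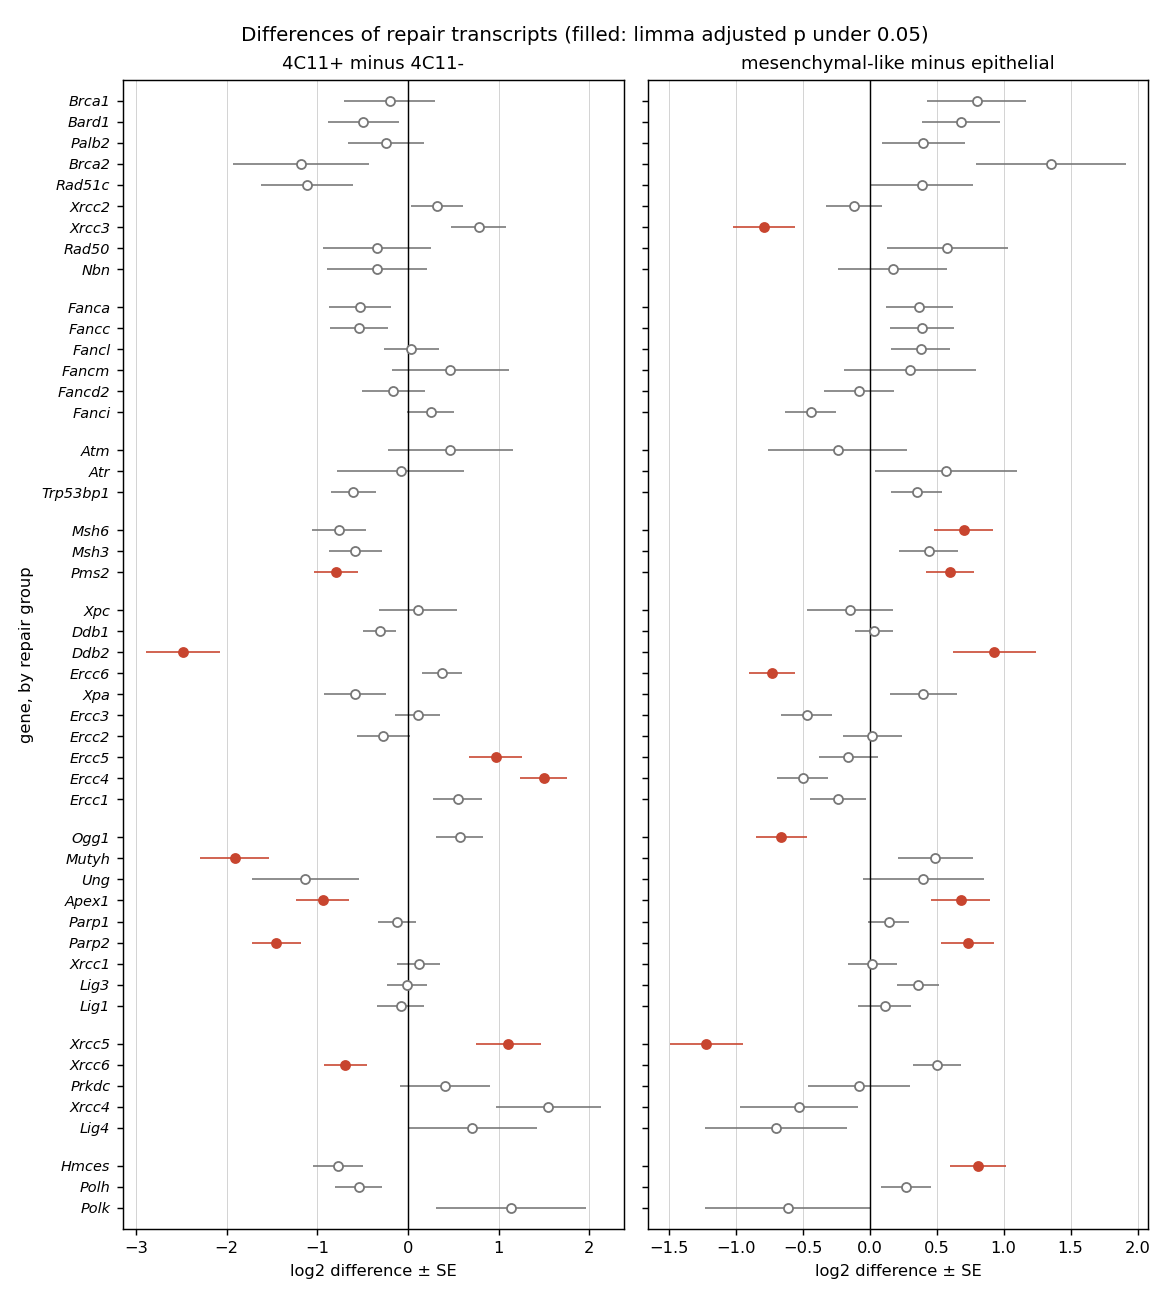
Points are log2 differences with their SE from limma for the 48 repair genes, on the left 4C11+ minus 4C11- and on the right the mesenchymal-like lines 4C and 4C11- minus the epithelial lines melan-a and 4C11+. Filled points are the 9 and 10 genes called, from -2.48 in Ddb2 to 1.50 in Ercc4 on the left and from -1.22 in Xrcc5 to 0.93 in Ddb2 on the right.

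The spread within lines was uneven over the members and moved with the base composition of the transcripts. In 4C11-, 10 members ranged over more than 2 log2 units among the 3 replicates, with 3.49 in Polk as the highest, while 1, 1 and 2 members did so in melan-a, 4C and 4C11+. The 8 members whose transcripts are under 44% GC, Xrcc4, Fancl, Polk, Lig4, Atr, Atm, Brca2 and Prkdc, were all below their line mean in 4C11- replicate 1, by a median of -1.61. The same 8 were all below it in melan-a replicate 2, with a median of -0.58, and in 4C11+ replicate 2, with -0.46. Over all genes of that composition, 2866 in number, the median in 4C11- replicate 1 was -0.93, so the shift was not particular to repair genes. In the 40 other members it was 0.16. Without 4C11- replicate 1, 9 members were again called between 4C11+ and 4C11- (32.7% of all genes), of which 5 were the same, Ddb2, Mutyh, Parp2, Ercc4 and Xrcc5, and 4 were Brca2, Ogg1, Msh3 and Xrcc3.

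Removing a smooth trend with GC from each library, an alternative added after the data were seen, raised the members called between mesenchymal-like and epithelial lines from 10 to 16 and the share of all genes called from 29.7% to 34.9%, with Brca2 (1.44 ± 0.38, adjusted p = 0.0118), Bard1 (0.76 ± 0.25, adjusted p = 0.035) and Brca1 (0.89 ± 0.32, adjusted p = 0.0491) among those added. Between 4C11+ and 4C11- it raised the members called from 9 to 15 and the share of all genes from 31.1% to 37.1%, and Xrcc5 was no longer called. The calls of Ddb2, Mutyh, Parp2 and Ercc4 between 4C11+ and 4C11- held, at -2.58 ± 0.41, -1.88 ± 0.37, -1.54 ± 0.24 and 1.51 ± 0.24.

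**Figure D4:**
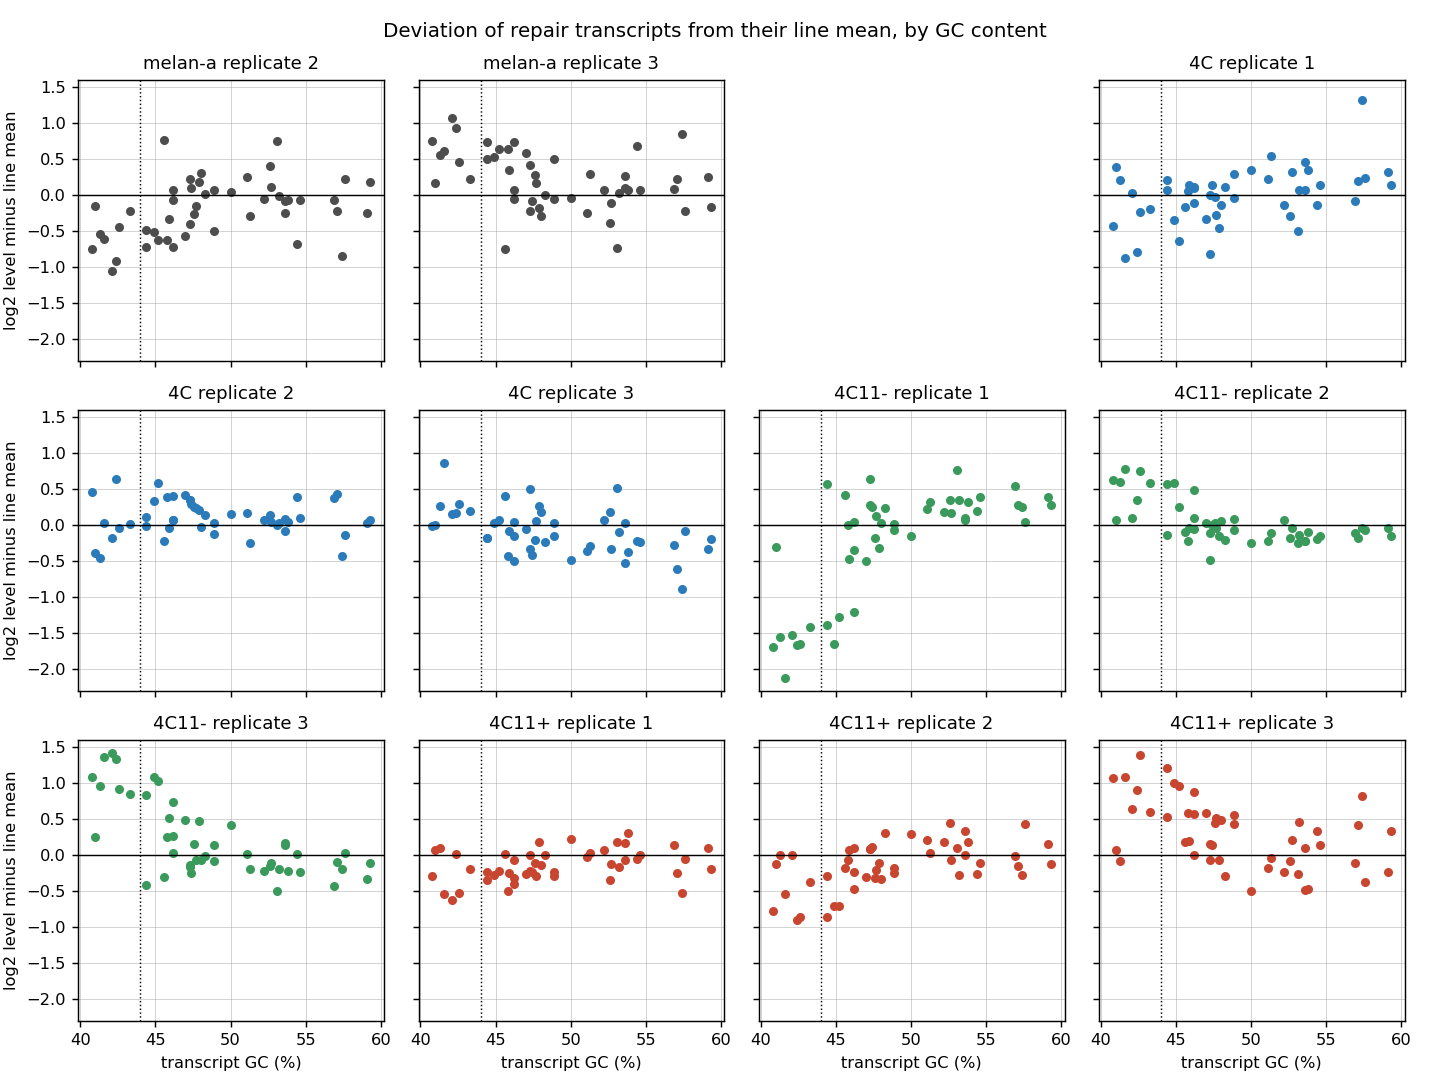
Each panel shows a library, with the GC content of the transcript in percent on the x axis and the log2 level minus the mean of its line on the y axis for the 48 repair genes, and the dotted line marks 44% GC. In 4C11- replicate 1 the 8 genes to the left of the line lie between -2.13 and -0.31.

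Of 116 further repair genes, 23 (19.8%) were called between 4C11+ and 4C11-, against 31.1% of all genes. In 4C11+, 19 of them (16.4%) were lower, near the 15.4% of all genes, and 4 (3.45%) were higher, against 15.6%, and the median difference of the list was -0.20 against 0.12 over all genes. Between mesenchymal-like and epithelial lines, 17 (14.7%) were higher, near the 14.3% of all genes, and 4 (3.45%) lower, against 15.3%, with a median of 0.17 against -0.09. Of 16 further base excision repair genes, 4 were lower in 4C11+ than in 4C11- and 1 was higher. Nthl1, which removes oxidized pyrimidines, had log2 levels of 2.42, 2.32 and 3.06 in 4C11+ and 5.31, 4.76 and 4.68 in 4C11- (-2.31 ± 0.30, adjusted p = 1.3e-04). Neil3, a glycosylase of replicating cells, had 1.79, 1.32 and 3.75 against 4.06, 4.64 and 5.13 (-2.32 ± 0.57, adjusted p = 0.00898). In both genes the lines did not overlap, and both were also lower in every 4C11+ library than in melan-a. Tdg, the thymine glycosylase, named here after its values were seen, went the other way, with 6.98, 7.02 and 6.61 in 4C11+ and 5.72, 5.61 and 5.92 in 4C11- (1.12 ± 0.31, adjusted p = 0.0178).

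Among mismatch repair genes, Pold1, the catalytic subunit of a replicative polymerase, differed by -0.91 ± 0.30 between 4C11+ and 4C11- (adjusted p = 0.0367). In nucleotide excision repair, TFIIH subunits diverged in 4C11+ relative to 4C11-. Gtf2h1 rose to 8.37, 8.51 and 8.44 from 6.09, 6.35 and 6.59 (2.10 ± 0.31, adjusted p = 3.9e-04), while Gtf2h3 fell to 4.83, 4.52 and 5.24 from 6.49, 6.24 and 5.95 (-1.36 ± 0.25, adjusted p = 0.00176). In melan-a, Gtf2h1 was at 6.71 and 8.13. It was called lower in 4C than in melan-a and was not called between 4C11+ and melan-a. Gtf2h3, at 5.95 and 5.59 in melan-a, was called lower in 4C11+ than there.

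Further genes by the same comparison were Shld1, a shieldin subunit, at 3.35 ± 0.69 (adjusted p = 0.00344), Fancg, of the Fanconi core complex, at -2.10 ± 0.54 (adjusted p = 0.012), and Alkbh2, which directly reverses alkylation, at -1.40 ± 0.39 (adjusted p = 0.0187). Shld1 was low, with log2 levels of 0.26, -0.24 and -2.44 in 4C11- and 2.78, 2.77 and 2.09 in 4C11+. The lowest values of the 4C11- libraries were -3.15, -3.44 and -3.44, so its difference rests on low values. Between 4C11+ and melan-a, the helicase Wrn stood at -2.09 ± 0.52 (adjusted p = 0.0199), the checkpoint kinase Chek2 at -1.56 ± 0.47 (adjusted p = 0.0444) and Ube2a, of lesion bypass, at 1.03 ± 0.27 (adjusted p = 0.0246). Fancb was higher in the mesenchymal-like lines by 2.49 ± 0.68 (adjusted p = 0.0158), but the libraries overlapped. Its log2 levels were 0.06 and 3.80 in replicates 2 and 3 of melan-a, 0.84, 1.18 and 3.25 in 4C11+, and 2.88 in 4C11- replicate 1. The end joining genes of this wider list were called in 0 comparisons.

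Many repair genes are induced with DNA replication, and 24 proliferation genes were set beside them. Between 4C11+ and 4C11-, limma called 0 of the 24, against 31.1% of all genes, and their median difference was -0.24 against 0.12 over all genes. Between mesenchymal-like and epithelial lines 4 (16.7%) were higher, near the 14.3% of all genes, and 0 lower, against 15.3%. Among the higher ones were Top2a (1.55 ± 0.47, adjusted p = 0.026) and Cdc6 (1.31 ± 0.43, adjusted p = 0.0372). Against melan-a, 1 of the 24 (4.17%) was called in 4C, against 15.2% of all genes, namely Mcm6, which was higher (1.26 ± 0.26, adjusted p = 0.00684). In 4C11+, 3 (12.5%) were higher than in melan-a, against 8.39% of all genes, and 0 lower, against 7.52%. Rrm2 was among them (1.91 ± 0.56, adjusted p = 0.0375). The median of the list, relative to the mean of the line means, was -0.92 in melan-a replicate 2 and 0.20 in replicate 3, and the recombination members stood at -0.83 and 0.34 in the same libraries. Whether this bears on the differences from melan-a was not tested.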

How the data were processed

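The authors trimmed the reads with Trimmomatic, aligned them with STAR to the mouse genome (GRCm38), assigned them to genes with Rsubread, kept expressed genes and normalized with voom of limma. The values that the authors deposited are thus on a log2 CPM scale, and the 11 libraries share a single highest value, 13.69, with medians from 4.565 to 4.576, as a quantile step would leave them. Such a step is not given in the sources used here. Read totals are therefore unknown. Reads of low values were counted from the steps among the distinct values of a library, up to 150.

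The members and lists were chosen with earlier results of these data known. Deposited values were used unchanged, and 24 genes without a symbol stayed in the fits. In R 4.3.3, limma 3.58.1 fitted a mean per line over all 11 libraries, which share the estimate of the spread, with a trend of the variance on the mean and p adjusted by Benjamini-Hochberg over 14272 genes. A gene was called at an adjusted p under 0.05, and errors are SE from the fit. The fit was tested on simulated data. P-values measure the spread between replicates of single lines. Summaries, motifs and plots were made in Python 3.11.15 with NumPy 2.4.6, pandas 2.3.3 and matplotlib 3.10.9. Gene positions, exon overlaps and GC contents are those of the GENCODE annotation on GRCm38.

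Values in every library are given for members called in at least 1 comparison, up to 5 per repair group by the F-test. Other members are named with their range or difference, and of the wider repair list up to 2 called genes per group with the largest differences are named, and of the proliferation list up to 4. Some genes of the wider list were counted and are not reported here by name. Of the marker lists for other cells, 1 keratinocyte, 2 immune and 2 endothelial genes were measured. Their sums were at most 2.8 CPM for the keratinocyte gene, 82.9 for the immune genes, in melan-a replicate 2 (3.90 to 8.65 elsewhere), and 178 for the endothelial genes, in 4C11- replicate 2. The alternatives were a further quantile normalization, leaving out low genes, an offset, the variance model, array weights, the replicate block and each library left out. Removing a GC trend and leaving out melan-a replicate 2 with 4C11- replicate 1 were added after seeing the data.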

Additional observations from a re-analysis of the deposited data

How the results depend on the processing

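Of 26 calls of single repair genes, 9 held under all 20 alternatives: Ddb2, Mutyh, Parp2 and Ercc4 between 4C11+ and 4C11-, Ddb2 and Ercc5 between 4C11+ and melan-a, and Xrcc5, Hmces and Ercc6 between the phenotypes. No direction reversed, and 416 of 520 recomputed values kept the call. Leaving out each library in turn gave 0 (without melan-a replicate 2) to 3 members called in 4C against melan-a, 4 (without 4C11+ replicate 1) to 10 in 4C11+ against 4C11-, 3 to 6 in 4C11+ against melan-a, 4 (without 4C11+ replicate 1) to 11 between the phenotypes, and 6 to 12 in the F-test, while 4C11- against 4C stayed at 0. The calls over all genes moved as well. In the same settings, lowest then highest, they were 1874 and 2663 in 4C against melan-a (2167 with all libraries). They were 2986 and 4809 in 4C11+ against 4C11- (4433) and 1185 and 2864 in 4C11+ against melan-a (2270). Between the phenotypes they were 3383 and 4854 (4232), and in the F-test 5027 and 4859 (5158). In 4C11+ against 4C11- the member count was also 5 without 4C11- replicate 2 or 4C11+ replicate 2 (3297 and 3097 of all genes). In 4C11+ against melan-a it was 3 without melan-a replicate 2, 4C11+ replicate 1 or 4C11+ replicate 2 (1185, 1089 and 1145 of all genes). Between the phenotypes it was 5 without melan-a replicate 2 (4092 of all genes) and 6 without 4C replicate 2 or 4C11- replicate 2 (3431 and 3539).

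In 4C against melan-a, a filter on genes with a mean log2 value under 1, the fit without a mean-variance trend, and leaving out melan-a replicate 2 with 4C11- replicate 1 each left 1 call, Ercc6. Over all genes, 1589 (of the 11444 kept by the filter), 1985 and 2595 were called in these fits, against 2167 in the main fit. Array weights, from 0.219 for 4C11- replicate 1 to 4.712 for 4C11+ replicate 1, raised the calls to 29 in 4C11+ against 4C11-, 20 between the phenotypes, 33 in the F-test and 2 in 4C11- against 4C, where Mutyh and Ercc4 were called. Removal of the GC trend gave 15 in 4C11+ against 4C11-, 16 between the phenotypes and 15 in the F-test, and leaving out the 2 libraries low in GC-poor transcripts gave 14 in 4C11+ against 4C11-. The cause of these moves was not tested. The calls among all genes without the GC trend were 5296, 4974 and 6388 in the same order. Without the 2 libraries, 5590 of all genes were called in 4C11+ against 4C11-. Over all genes, the 238 calls of 4C11- against 4C became 125 with the filter, 2501 with array weights, 431 without the GC trend and 388 without the 2 libraries. Array weights raised 4433 calls of 4C11+ against 4C11- to 9238 and 5158 of the F-test to 10339. Between the phenotypes they raised 4232 calls to 5807 of 14272 genes. The share of the 48 members called there with array weights, 20, was thus not smaller than that of all genes.

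Same-numbered libraries of different lines did not deviate together in all pairs (r from -0.226 to 0.388 over 15 pairs, 8 of them over 0.1), so the numbers were not taken to pair the samples. With the replicate number as a block (replicate block), 3, 0, 9, 4 and 10 members were called in the 5 comparisons and 10 in the F-test. Over all genes the block gave 2265, 254, 4715, 1930 and 4566 calls, and 5300 in the F-test. Depth limits Mutyh and Ddb2 in 4C11+, with 10 to 22 reads.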
